A study of Mus musculus with 3 samples.

Results

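The promoters described here are those of the genes for the proteins of the cytoplasmic ribosome. They were chosen by name among the 22380 protein-coding genes of the GENCODE annotation of mm9. A gene was a member if its symbol begins with Rpl or Rps and a digit, or is Rplp0, Rplp1, Rplp2 or Rpsa. Rps6k kinases and symbols ending in -ps were left out. The rule gave 85 genes, of which 45 encode proteins of the large subunit and 32 proteins of the small subunit. Another 7 carry an l suffix that marks a paralog, and Rps19bp1 encodes a protein that binds Rps19 and is not a ribosomal protein itself. The measured values came from ChIP-seq of RNA polymerase II (RNAP2) and of Med12 in cells of dissected mouse distal forelimbs at E12.5, after collagenase dissociation and formaldehyde fixation. Each antibody has 1 library, the input library has no peak list among the files used here, and no mutant or treatment was compared. The labels name the RNAP2 antibody by its catalogue number and do not state which form of the polymerase it binds. The series design text gives E11.5 where the sample labels give E12.5.

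The ribosome joins a small subunit, which reads the mRNA, to a large subunit, which forms the peptide bond, and its proteins are made in matched amounts in every growing cell. Most of their mRNAs start with a terminal oligopyrimidine (TOP) tract, through which growth signals control their translation. Mediator, of which Med12 is a subunit of the kinase module, links transcription factors bound at enhancers and promoters to RNAP2. In mice, mutations in single ribosomal protein genes give restricted defects, such as the altered vertebrae of Rpl38 mutants and the white feet and kinked tail of Rpl24 mutants.

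The promoters of 7 genes are shown as sequence. Rpl15, Rplp0 and Rpl28 had the highest listed RNAP2 peak scores of the family, with the limit on this order given below. Rps12, Rpl22 and Rpl35a had the highest Med12 peak scores, and Rpl3l had neither peak. Each sequence holds 100 bases before the first base of the RefSeq transcript and 50 bases from that base on, in the direction of transcription. Where a gene has several RefSeq starts, the first listed was used. The sequences are those of RefSeq (GRCm38.p6) and were found unchanged in mm9. Capitals mark runs of 8 or more pyrimidines that reach within 50 bases of the start. The intervals are chr14:19103451-19103600 (minus strand), chr5:116009376-116009525 (plus strand), chr7:4744467-4744616 (plus strand), chr10:23506966-23507115 (minus strand), chr4:151699735-151699884 (plus strand), chr16:33056439-33056588 (plus strand) and chr17:24864671-24864820 (plus strand).
Rpl15: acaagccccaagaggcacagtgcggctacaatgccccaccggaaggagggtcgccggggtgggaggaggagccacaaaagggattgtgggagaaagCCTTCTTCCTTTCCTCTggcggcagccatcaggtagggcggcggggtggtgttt
Rplp0: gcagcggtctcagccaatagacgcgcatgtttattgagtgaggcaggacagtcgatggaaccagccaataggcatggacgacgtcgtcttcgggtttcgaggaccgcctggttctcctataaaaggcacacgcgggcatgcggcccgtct
Rpl28: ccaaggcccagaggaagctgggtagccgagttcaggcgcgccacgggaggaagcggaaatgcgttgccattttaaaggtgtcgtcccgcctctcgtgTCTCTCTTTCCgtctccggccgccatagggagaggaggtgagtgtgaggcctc
Rps12: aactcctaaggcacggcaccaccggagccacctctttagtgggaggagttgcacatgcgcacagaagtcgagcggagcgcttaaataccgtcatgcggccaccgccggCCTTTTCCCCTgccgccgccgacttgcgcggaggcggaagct
Rpl22: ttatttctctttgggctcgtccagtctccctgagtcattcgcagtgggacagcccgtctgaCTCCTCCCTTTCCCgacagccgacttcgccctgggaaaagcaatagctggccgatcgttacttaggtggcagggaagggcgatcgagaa
Rpl35a: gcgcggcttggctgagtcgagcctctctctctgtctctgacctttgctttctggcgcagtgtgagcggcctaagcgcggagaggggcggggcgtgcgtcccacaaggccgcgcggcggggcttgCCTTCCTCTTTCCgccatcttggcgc
Rpl3l: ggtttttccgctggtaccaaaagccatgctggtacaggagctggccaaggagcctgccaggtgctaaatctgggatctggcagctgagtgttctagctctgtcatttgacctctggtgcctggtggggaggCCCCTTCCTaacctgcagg
The 6 promoters with a peak lie wholly under it. The run of Rpl15 is 17 bases long and begins at position -4, counted from the first transcribed base as 0. That of Rpl28 is 11 bases long and begins at -3. In Rps12 a run of 11 bases begins at 8 and in Rpl35a one of 13 bases begins at 24, both within the annotated transcript. Rpl22 has 14 pyrimidines from -39, and Rplp0 has no run of this length near its annotated start. For Rpl22 the start used is the first of 2 in RefSeq, at -127 bp from the start used by most of its protein-coding transcripts. Rpl3l, the paralog without a peak, has a run of 9 bases that begins at 31.

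The RNAP2 list holds 20479 peaks and the Med12 list 10634. A peak carries a score, 10 times the negative log10 of the peak caller's p-value, which grows with read depth and is therefore compared within a list only. The lists hold no read counts, so the depth behind a peak is unknown, and no value below has a replicate error. All intervals given are 95% Wilson intervals and cover counting error alone. RNAP2 peaks lay within 1 kb of the starts of all 5 markers of distal limb mesenchyme, with scores of 1726 at Hoxa13, 1855 at Hoxd13, 1973 at Prrx1, 2686 at Twist1 and 3100 at Msx1. No peak was listed at Krt14 or Fgf8 (ectoderm), Myod1 (muscle), Cdh5 (endothelium), Gata1 or Hba-a1 (blood), or Alb, Neurod1 or Pou5f1 (other tissues), and Pax3 (muscle precursors) and Kdr (endothelium) had peaks with scores of 283 and 148.

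RNAP2 was listed at nearly the whole family. Of the 85 genes, 80 (94.1%, interval 87.0 to 97.5) had an RNAP2 peak within 1 kb of an annotated start, where the share of all protein-coding genes was 42.2%. All 45 genes of the large subunit and 31 of the 32 of the small subunit were among them. The 5 exceptions were 3 paralogs (Rpl3l, Rpl10l and Rpl39l), Rps4y2 and Rps19bp1. Rpl3l is known from striated muscle, and Rpl10l and Rpl39l are known from the testis. From their reference starts, the nearest RNAP2 peaks were 2932 bp away at Rpl3l, 540062 bp at Rpl10l and 22054 bp at Rpl39l. The distance was 12064 bp at Rps4y2, a relative of the small subunit gene Rps4x, which itself had a peak with a score of 698. Rps19bp1 was 7496 bp from the nearest RNAP2 peak, although it had a Med12 peak with a score of 47.9.

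The other 4 paralogs had RNAP2 peaks. The scores were 1867 at Rpl7l1, 1619 at Rpl22l1, 1287 at Rps27l and 1258 at Rpl36al. Rpl22l1 thus had a higher score than Rpl22, the gene it resembles, at which the score was 365. The window of Rpl36al also held the start of Mgat2, so that peak cannot be assigned to 1 gene. Rps27l, a target of p53, was the only one of the 7 paralogs with a Med12 peak, which scored 75.8.

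**Figure D1:**
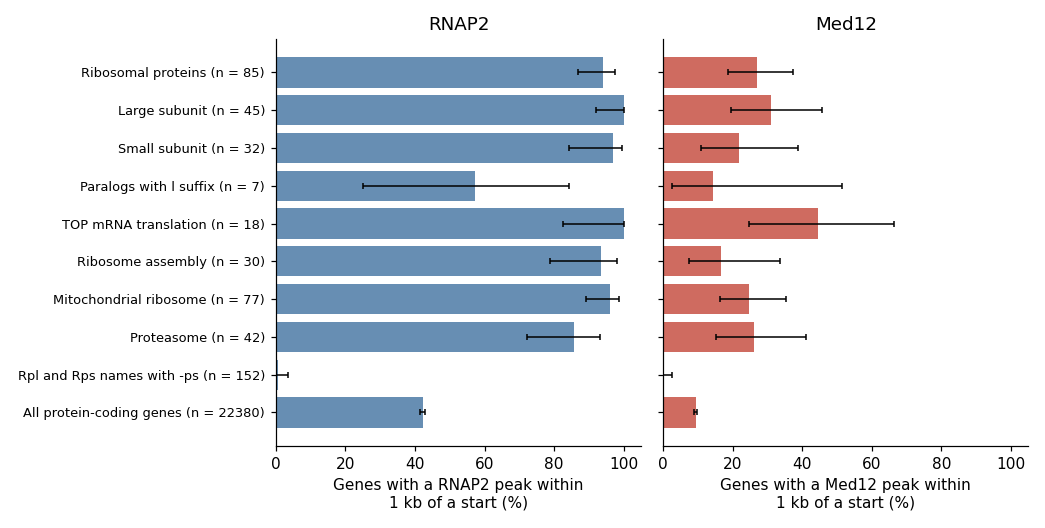
Share of genes (x axis, percent) with an RNAP2 peak (left) or a Med12 peak (right) within 1 kb of a start, for ribosomal protein genes, their groups, comparison lists and all protein-coding genes. Bars start at 0 and lines are 95% Wilson intervals. RNAP2 was listed at 94.1% of ribosomal protein genes and 42.2% of all genes, and Med12 at 27.1% and 9.37%.

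The copies of ribosomal protein genes whose symbols end in -ps were nearly empty. The annotation has 152 of them, 98 typed as pseudogenes and 53 as protein-coding, and 1 had an RNAP2 peak (0.658%, interval 0.116 to 3.63). That peak, near Rpl30-ps3, scored 439 and covered a start of Fnbp4. None of the 152 had a Med12 peak (interval 0 to 2.46%). Reads were aligned in Bowtie's best mode, and the signal tracks are described as holding uniquely mapped reads. Reads that match a gene and its copies alike cannot be assigned to either, so the numbers at near-identical copies are uncertain and a copy without a peak is not shown to lack RNAP2.

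The peaks of the family were also among the highest of the list. The median score over the 80 genes was 1859 (25th to 75th percentile 1219.5 to 2766), and that over all 9439 protein-coding genes with a peak was 383 (155 to 926). A score of 1000 or more was found at 64 of the 80 genes (80%), against 23.1% of protein-coding genes with a peak. Among all 20479 RNAP2 peaks, the median rank of the 80 genes was 863, and 64 of them were in the top 10 percent. None fell below the median score of the list, 123.

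The order at the top is not resolved, since 311 peaks of the list share a score of exactly 3100. This value was found at 14 ribosomal protein genes, among them Rpl3, Rpl10, Rpl13a, Rpl18, Rpl27a, Rps2, Rps3, Rps9, Rps13, Rps14, Rps20 and Rps28. Listed scores above this value were those of Rpl15 (3174), Rplp0 (3172) and Rpl28 (3112), where the whole list has 18 such peaks. A score shared by so many peaks may be a fixed value written by the caller. These genes therefore cannot be ranked against the 14. Rplp0 encodes the base of the acidic stalk that recruits elongation factors, and Rpl15 is a large subunit gene mutated in Diamond-Blackfan anaemia. The lowest scores of the family were those of Rpl22 (365), Rpl39 (525), Rps25 (594), Rplp2 (656) and Rpl38 (669). Of these 5 genes, Rpl22 alone was below the median of 383 over protein-coding genes with a peak.

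Both subunits spread over much of this range, with scores from 365 to 3174 in the large and from 594 to 3100 in the small subunit. The median was 1854 for the large subunit (25th to 75th percentile 1244 to 2618) and 2190.2 for the small subunit (1130.2 to 3100), so that the quartiles overlapped. Some ribosomal protein genes are missed by the naming rule. Gnb2l1, which encodes the small subunit scaffold protein RACK1, scored 2352. Fau, which encodes a small subunit protein fused to a ubiquitin-like protein, scored 483. Mrpl49, a gene of the mitochondrial ribosome, was listed with the same score, so this peak may be shared and is not assigned to Fau alone. Neither Gnb2l1 nor Fau had a Med12 peak.

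**Figure D2:**
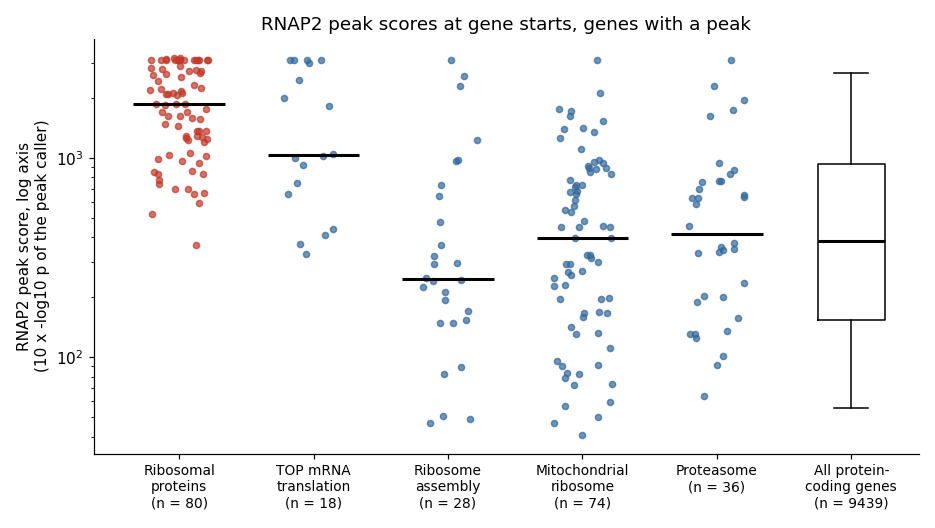
RNAP2 peak scores (y axis, log scale) at the starts of genes with a peak, 1 point per gene, with horizontal lines at the medians. The box for all 9439 protein-coding genes spans the 25th to 75th percentile, with whiskers from the 5th to the 95th. The median was 1859 for ribosomal protein genes and 383 for all protein-coding genes, and points pile up at the shared score of 3100.

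Other gene groups of protein synthesis and turnover had peaks about as often but with lower median scores. Of 77 genes of the mitochondrial ribosome, 74 had an RNAP2 peak (96.1%), with a median score of 394, and 14.9% of these scored 1000 or more. For 42 annotated entries with symbols like those of proteasome subunits the numbers were 36 (85.7%) and 414. These entries include Psmc3ip, which is not itself a subunit, and a repeated entry of Psmd14. The intervals of both shares overlapped that of the ribosomal protein genes. In a list of 18 genes for translation factors and related proteins with TOP mRNAs, all had an RNAP2 peak and the median was 1032. The 25th to 75th percentile of these 18, 682 to 2844, overlapped that of the ribosomal protein genes (1219.5 to 2766). A score of 3100 or more was found at 22.2% of the 18, against 21.25% of ribosomal protein genes with a peak. Eef1a1, which brings aminoacyl-tRNA to the ribosome, scored 2446 in that list, and Eif3a, a subunit of an initiation factor, scored 3100.

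Peaks at ribosomal protein genes covered a large part of these short genes. Their width had a median of 1758.5 bp (900 to 6254 bp), against 1493 bp over protein-coding genes with a peak. On the upstream side they reached a median of 637.5 bp beyond the reference start (663 bp over protein-coding genes), and on the downstream side 1007 bp (785 bp). The reference start is the one used by most protein-coding transcripts of the gene. The peak centre was downstream of it in 67 of the 80 genes, with a median of 188 bp, against 73.5 bp over protein-coding genes with a peak.

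The median gene length was 3237.5 bp for the 80 genes and 23778 bp for all protein-coding genes with a peak. RNAP2 peaks covered a median of 35.6% of the ribosomal protein gene and 4.78% of a protein-coding gene. At least 50% of the gene was covered in 28 of the 80 (35%), against 6.02%. Rpl7a, Rpl10a, Rpl37, Rps21 and Rps29 were covered from end to end. A peak lay over the annotated 3′ end in 21 genes (26.2%), against 7.91% of protein-coding genes with a peak.

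Part of this difference remained when genes of like length were compared. Between 1688 and 5880 bp, which are the 10th and 90th percentiles of the family, lay 64 ribosomal protein genes and 1150 protein-coding genes with a peak, the 64 included. In this length class the median covered share was 34.4% against 24.4%. The median score was 1845 against 422, and a peak lay over the 3′ end of 25% against 13.7% of the genes. The downstream reach was 1027 bp against 766.5 bp.

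**Figure D3:**
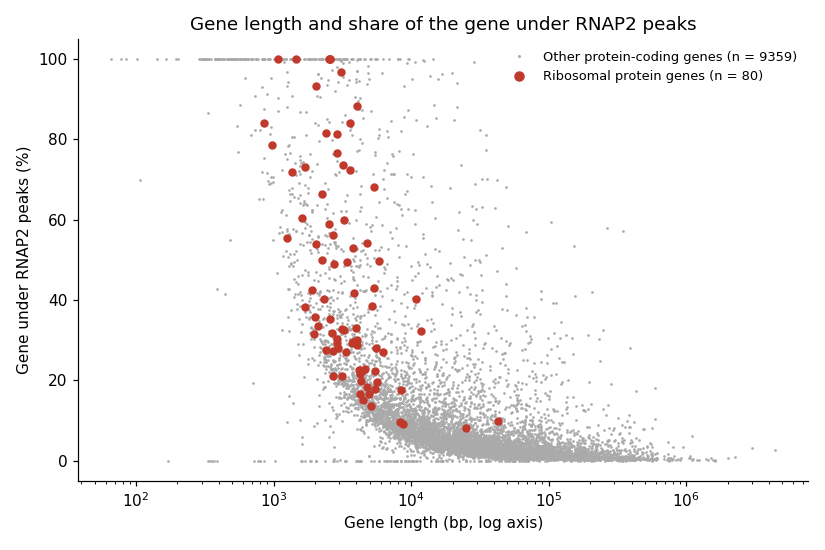
Share of each gene under RNAP2 peaks (y axis, percent) against gene length (x axis, bp, log scale) for 80 ribosomal protein genes (red) and the other protein-coding genes with a peak (grey). Ribosomal protein genes sit at the short end, with a median length of 3237.5 bp and a median covered share of 35.6%.

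Among the widest peaks were those of Rpl37 (5403 bp), Rpl10a (4288 bp), Rpl9 (3738 bp) and Rpl7a (3438 bp). Rpl10a and Rpl9 had wide peaks of moderate score (1018 and 1356). The peak of Rpl37 began 1494 bp upstream of the start and ended 3908 bp downstream, beyond the end of a gene of 2528 bp. The narrowest was that of Rps4x, at 900 bp.

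In 75 of the 80 genes the highest peak covered the reference start, and in Rpl13a, Rpl18, Rpl24, Rps2 and Rps10 it covered another annotated start downstream. Rpl24 had a peak with a score of 994 at its reference start and one with 2123 that began 6766 bp further along. A second RNAP2 peak within the windows was listed at 8 genes of the family in all. For 15 genes the window also held the start of another protein-coding gene, such as Nkiras1 beside Rpl15, Ndufa7 beside Rps28 and Med22, itself a Mediator subunit gene, beside Rpl7a (2657). The peaks of such pairs cannot be assigned to 1 gene. The 65 genes with a peak and no such neighbour had a median score of 1836, and the 15 with one had 2657.

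**Figure D4:**
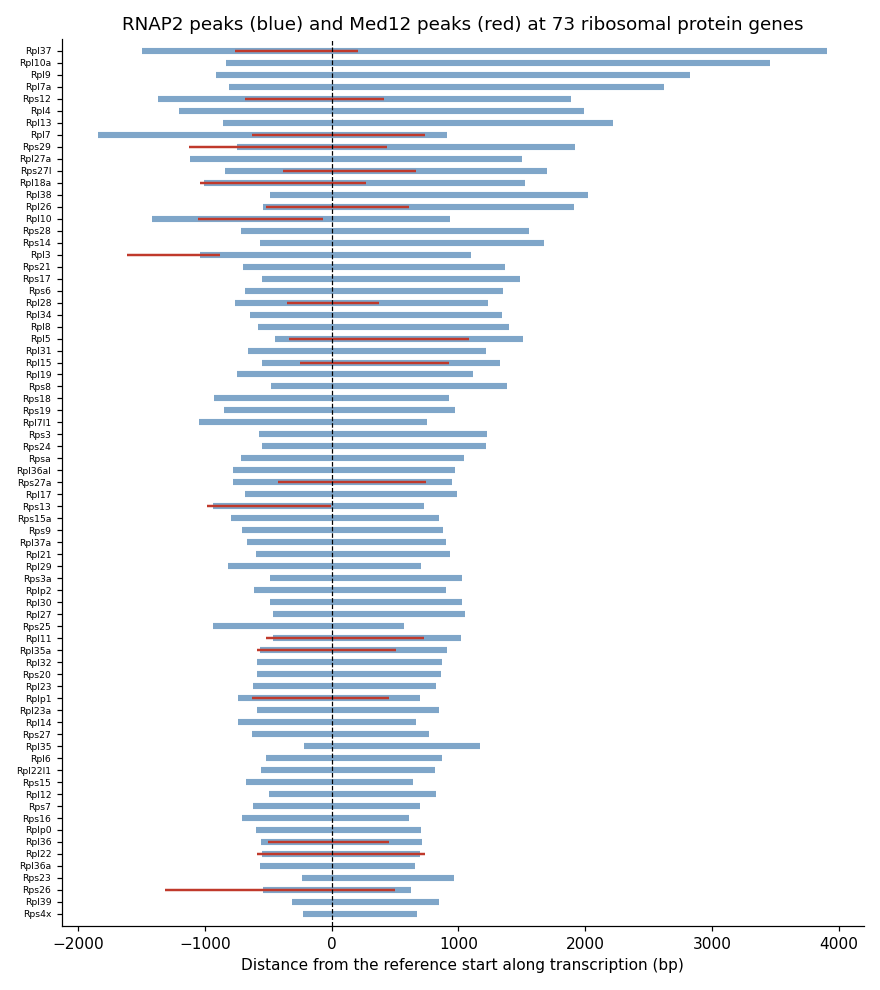
Extent of RNAP2 peaks (blue) and Med12 peaks (red) at 73 of the 75 ribosomal protein genes whose highest RNAP2 peak covers the reference start, as distance along transcription in bp (x axis), 1 row per gene, ordered by RNAP2 width. RNAP2 peaks reached further downstream than upstream in most genes, and Med12 peaks lay mostly within them.

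Med12 was listed at a smaller part of the family. It was found within 1 kb of a start at 23 of the 85 genes (27.1%, interval 18.8 to 37.3), where the share of all protein-coding genes was 9.37%. At 22 genes (25.9%) the Med12 peak overlapped the RNAP2 peak, against 8.36% of protein-coding genes. At a score of at least 50, the minimum that corresponds to the stated threshold of the peak caller, Med12 peaks remained at 20 genes, without Rpl3, Rps13 and Rps19bp1, and at 6.97% of protein-coding genes. Among genes with an RNAP2 peak the share with an overlapping Med12 peak was 27.5% in the family (interval 18.9 to 38.1) and 19.8% in all protein-coding genes, a value within that interval. Med12 peaks were listed at 19 of 77 genes of the mitochondrial ribosome (24.7%), at 11 of 42 proteasome genes (26.2%) and at 8 of the 18 translation genes with TOP mRNAs (44.4%, interval 24.6 to 66.3). The intervals of these groups and of the ribosomal protein genes overlapped.

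The highest Med12 scores were those of Rps12 (223), Rpl22 (219) and Rpl35a (196). Next were Rps27a (170), which encodes a ubiquitin fusion, Rps29 (166) and Rps26 (160), both small subunit genes mutated in Diamond-Blackfan anaemia, and Rpl15 (122). These 7 genes (30.4% of the 23) had a score of 100 or more, where the share of protein-coding genes with a Med12 peak was 25.1%. Below them were Rpl7 (95.6), Rpl26 (90.9), Rps27l (75.8) and Rps2 (75.1). Rpl5 (79.9) and Rpl11 (73.5) encode proteins that bind 5S rRNA and the p53 regulator Mdm2. The lowest score was 42.6, at Rpl3. The median over the 23 genes was 75.8, near that of all protein-coding genes with a Med12 peak (66.7). For 4 of the 23, Rpl35a, Rps27a, Rpl15 and Rps2, the window also held the start of another protein-coding gene. Their Med12 peaks cannot be assigned to 1 gene. Scores of 100 or more were found at 3 of these 4 and at 4 of the other 19.

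The Med12 order was not the RNAP2 order. Rpl22 had the lowest RNAP2 score of the family (365) and the second highest Med12 score, and Rps12 and Rpl35a had RNAP2 scores of 1062 and 1244, below the family median. An RNAP2 score of 3100 was found at 14 genes and a higher listed score at 3. Of these genes, Rpl15 alone had a Med12 score of 100 or more. The median RNAP2 score was 2211 in the 22 genes with both peaks and 1792 in the 58 with RNAP2 alone. Scores of the 2 lists were not compared with each other.

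Med12 peaks were placed at the start itself. Their centres had a median position of -40.5 bp from the reference start and their median width was 1098 bp, and 14 of the 22 lay wholly within the RNAP2 peak. In 19 of the 23 genes the Med12 peak covered the reference start. At Rpl10 and Rps13 it ended 66 and 4 bp upstream of the start. At Rpl3 it lay between positions -1617 and -883, with the lowest score of the family, and at Rps2 it was over a start downstream of the reference. The 58 genes with RNAP2 alone were a median of 65452.5 bp from the nearest Med12 peak.

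By subunit, Med12 peaks were listed at 14 of the 45 large subunit genes (31.1%, interval 19.5 to 45.7) and 7 of the 32 small subunit genes (21.9%, interval 11.0 to 38.8). The intervals overlapped.

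A list of 7 genes was chosen from those known from mouse mutants with restricted defects, and it is not a full account of such genes. All 7 in the list had an RNAP2 peak and none had a Med12 peak, which does not extend to mutant genes outside the list. The scores were 3100 at Rpl27a and Rps20, 2737 at Rps7, 2245 at Rps19, 2123 at Rpl24, 1269 at Rpsa and 669 at Rpl38. Mutations of Rps19 and Rps20 darken the skin of mice, Rpl27a is mutated in sooty foot ataxia, and the human counterpart of Rpsa is mutated in congenital asplenia. The median of 2245 lay within the quartiles of the family, and Rpl38 had the lowest score of the 7. With 0 of 7 genes, the Wilson interval for a Med12 peak reaches 35.4%, which includes the 27.1% of the family.

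Many ribosomal protein genes carry small nucleolar RNAs, which guide rRNA modification, in their introns. The annotation places 58 snoRNAs on the same strand within 30 of the 85 genes, with at most 5 in a gene (Rpl4). All 30 host genes had an RNAP2 peak, with a median score of 2099, and 50 of the 55 others had one, with a median of 1694. The quartiles overlapped (1096 to 3100 and 1247 to 2703). Med12 peaks were listed at 8 of the 30 and 15 of the 55.

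Sequence features that the rule did not use were counted at the starts. A run of 8 or more pyrimidines that reaches within 10 bases of the reference start was found in 25 of the 85 genes (29.4%, interval 20.8 to 39.8) and in 13.6% of protein-coding genes. At RefSeq starts, which 63 members have in the table used and which matched the reference start in 26, it was found in 27 of 63 (42.9%, interval 31.4 to 55.1) against 13.6%. Runs of 6 or more within 10 bases of the reference start were in 32 of the 85 (37.6%, interval 28.1 to 48.3). The share of protein-coding genes was 29.2%, which that interval includes. At RefSeq starts, runs of 6 or more were in 35 of 63 (55.6%, interval 43.3 to 67.2) against 29.3%. The first base of the RefSeq transcript was a pyrimidine in 46.0% of the 63 genes and in 23.2% of 14964 protein-coding genes. At the fifth base the shares were 79.4% and 51.9%. The share was also above that of all genes at each of the 10 bases before the first. Protein-coding genes with an RNAP2 peak had a run of 8 or more within 10 bases of the RefSeq start in 13.2%, close to the share of all genes.

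**Figure D5:**
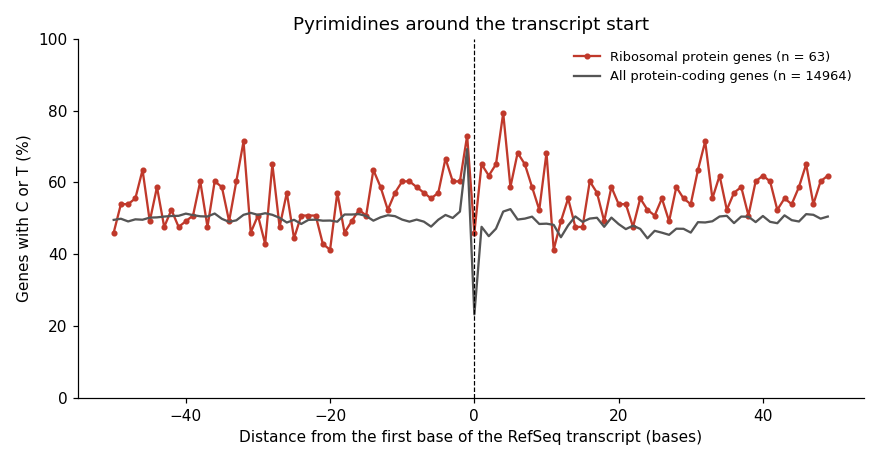
Share of genes with C or T (y axis, percent) at each base around the first base of the RefSeq transcript (x axis, 0 is that base) for 63 ribosomal protein genes (red) and 14964 protein-coding genes (grey). In ribosomal protein genes the share was 46.0% at the first base, against 23.2%. It was higher than in all genes at each of the next 10 bases and at each of the 10 bases before.

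Short motifs were searched in the 300 bases of each RefSeq promoter, 250 before the start and 50 from it on. CTTTCC, searched in the direction of transcription only and made of pyrimidines like the runs above, was in 23 of 63 members (36.5%), in 13.9% of protein-coding genes and in 14.3% of those with an RNAP2 peak. CCGGAAG, a core bound by ETS factors, searched on both strands, was likewise in 23 members (36.5%), against 11.9% and 20.7%. TCGCGAGA, on both strands, was in 9 members (14.3%), against 1.54% and 2.87%. TATAA, in the direction of transcription, was in 15 members (23.8%, interval 15.0 to 35.6), against 16.4%, which that interval includes, and 8.01%. Rplp0 was among them, and the TATAA in its printed sequence lies within the annotated transcript. AAGATGGC, the YY1 core, on both strands, was in 5 members (7.94%, interval 3.44 to 17.3), against 3.24% and 5.48%. The share of genes with a peak lay within that interval.

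Motifs of many housekeeping promoters were not more frequent in the family than in genes with a peak. GGGCGG, the GC box, on both strands, was in 60.3% of members, in 48.2% of protein-coding genes and in 68.3% of those with a peak. CCAAT, on both strands, was in 31.7%, against 39.1% and 40.6%. These shares count letters in a window and do not show that a factor was bound.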

How the data were processed

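ChIP-seq was made from distal forelimb cells at E12.5, with 1 RNAP2, 1 Med12 and 1 input library. Per the authors, reads lost their first base before alignment to mm9 (Bowtie), duplicates were discarded, and MACS 1.4.1 was run for each antibody. The deposited value is the score of each peak as the authors' peak caller wrote it. Both lists reach down to a score of 40, a p-value of 0.0001, although the stated threshold of the caller is 1e-05, a score of 50. All listed peaks were used, with a minimum of 50 as an alternative. Use of the input as control is not given in the sources used here. With 1 library per antibody no test was made, and counts, medians and 95% Wilson intervals are given as a description beside the same over all protein-coding genes.

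Peaks were counted where they share at least 1 bp with the 1 kb either side of any annotated start of a gene (GENCODE vM1), and the highest-scoring peak was described. Python 3.11.15, numpy 2.4.6, scipy 1.17.1 and pysam 0.24.0 were used. The overlaps were tested on simulated data, and bedtools 2.31.1 returned the same genes. Named genes were those without an RNAP2 peak, up to 12 by Med12 score, the 5 highest, 5 lowest and 5 widest by RNAP2, all paralogs, the mouse mutant list, and examples of shared windows and of the comparison lists. Other members are named where a count or limit turns on them, chosen after their values were seen. RefSeq starts were matched by exact sequence (63 of 85 members). Results on some members and list genes are not reported here. The members, lists and motifs were chosen with earlier results of these data known.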

Additional observations from a re-analysis of the deposited data

How the results depend on the processing

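The number of ribosomal protein genes with an RNAP2 peak stayed between 78 and 81 of 85 under other score minima, windows and starts, and their median score between 1722 and 1864. At a Med12 score of at least 100, members with a Med12 peak numbered 7, and those with an overlapping RNAP2 peak also numbered 7. Runs of pyrimidines within 50 bases of the start, in place of 10, were found in 58 members (68.2%). The shares under this setting were 39.8% of all protein-coding genes and 35.8% of those with an RNAP2 peak. The share of all protein-coding genes with an RNAP2 peak was 40.8% at a score of at least 50, 35.6% at 100, 45.3% with windows of 5 kb, 40.7% where the peak covers a start and 39.9% with 1 reference start per gene. For Med12 the shares under these settings were 6.97%, 2.35%, 12.6%, 7.53% and 8.15%, and they were 8.68% with windows of 500 bp and 8.98% with protein-coding transcripts alone. Fewer peaks or starts enter by construction in each case except the wider windows. The other 57 values computed, out of 72, moved by less than the intervals or 1.5 times the count, and 0 reversed. RefSeq starts were added after the data had been seen. No paired analysis was possible because there is a single library of each kind. The depth behind single peaks is unknown, and a gene without a listed peak may hold RNAP2 or Med12 below the score minimum of 40.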

Other observations

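Genes for ribosome assembly had RNAP2 peaks about as often as those for ribosomal proteins, with lower scores. Of 30 genes, 28 had an RNAP2 peak (93.3%, interval 78.7 to 98.2) with a median score of 247, and 4 of them scored 1000 or more. Ncl, which encodes the nucleolar protein nucleolin, scored 3100 and Nop56, a box C/D snoRNP core protein, 2565, whereas Polr1b, the second largest subunit of RNA polymerase I, scored 50.6. Pno1 and Ltv1, assembly factors of the small subunit, had no peak, and were named after their values were seen. Med12 peaks were listed at 5 of the 30 genes (16.7%, interval 7.34 to 33.6), with the highest score, 254, at Pes1, a factor of large subunit assembly.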
